A study of Homo sapiens with 6 samples.

Results

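The human genes whose current symbol starts with SRSF, HNRNP, SNRP, SF3A or SF3B were followed in PANC1, an established human pancreatic carcinoma cell line, upon treatment with gemcitabine. Of the 20461 protein-coding genes in the deposited table, 54 carried such a symbol, that is 11 SRSF, 22 HNRNP, 12 SNRP, 3 SF3A and 6 SF3B genes, after 1 readthrough gene (HNRNPUL2-BSCL2) was left out. They were matched by Ensembl gene ID. The rule reads names alone, and it was set with earlier results of these data known. PANC1 cells had been grown for 24 hours and then held for 48 hours with 50 nM gemcitabine or with vehicle (0.1% DMSO), and mRNA libraries were read by single-end RNA-seq from 2 biological replicates per condition. DNaseI-seq, which maps accessible chromatin by where DNaseI cuts, was run on 1 library per condition. All libraries came from this 1 cell line, for which the labels name no engineered allele, and treatment was the only difference the labels name between the groups. For each library and gene the table gave fragments, here the number of reads assigned to the gene, and FPKM, which divides them by transcript length and depth so that levels of different genes can be set side by side.

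The nuclear precursor of an mRNA is spliced by the spliceosome, a machine assembled from small nuclear ribonucleoproteins (snRNPs) and many other proteins. The U1 snRNP reads the 5′ splice site and the U2 snRNP the branch point, where the SF3A and SF3B proteins anchor U2 to the RNA. The Sm proteins, most of which are SNRP genes, form a ring around the U1, U2, U4 and U5 snRNAs. SR proteins (SRSF genes) carry arginine-serine repeats and mostly bind exons to favour their inclusion, whereas the hnRNPs coat nascent RNA, often oppose exon inclusion and also act in RNA export, stability and translation. The tumour drug gemcitabine is a deoxycytidine analogue that is built into DNA and blocks its synthesis.

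The 4 RNA libraries held 13194533 to 15766237 fragments on genes, with the vehicle libraries the deeper ones. Of the markers checked, KRT7, KRT8 and KRT18, keratins of ductal and simple epithelia, were high (336 FPKM or more in every library), and VIM, an intermediate filament gene of mesenchymal cells, lay at 385 to 476 FPKM. The epithelial markers KRT19, EPCAM and CDH1 stayed at or below 6.91 FPKM in every library. Acinar, islet and endothelial markers and the leukocyte markers CD3E and CD14 had at most 3 fragments in any library, PTPRC had 2 to 9, and of the fibroblast markers COL1A1 was high (864 to 1100 FPKM) while DCN and LUM did not exceed 9.50 FPKM. The summed level of the 6 epithelial markers was 2363 to 2525 FPKM with vehicle and 2549 to 2621 FPKM with gemcitabine, and that of the 3 fibroblast markers was 871 to 875 against 1002 to 1114 FPKM. Of the 6, KRT7 (1660 and 1550 against 1490 and 1500 FPKM) and EPCAM lay lower with gemcitabine, and the others higher. COL1A1 made up nearly all of the fibroblast sum. The part of these marker levels in the results below was not tested.

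Most tested genes of these families were lower upon gemcitabine treatment, with their largest falls among hnRNP and SR genes. Most Sm genes did not pass the test. Of the 54 genes, 52 had enough fragments to test (at least 10 over the 4 libraries). Of these, 36 were lower with gemcitabine and 1 was higher at an adjusted p under 0.05 (edgeR quasi-likelihood test, Benjamini-Hochberg adjustment over all 14854 tested genes). At an unadjusted p under 0.05 these numbers were 37 and 1, beside 3586 and 3428 of all 14854 tested genes. DESeq2 found 0 of the 52 higher. At an adjusted p under 0.05 the edgeR test found 20.0% lower and 18.5% higher across all tested genes. Among the 6518 genes with a mean of at least 500 fragments, a level that 50 of the 52 reached, it found 31.4% lower and 17.1% higher. A gene was called changed by the thresholds of the study (adjusted p under 0.05, a fold change above 1.5, a mean of at least 0.1 FPKM in 1 condition and a difference of at least 1 FPKM), with the adjusted p and the fold taken here from the edgeR fit to fragments in place of Cuffdiff. By this rule 13 of the 52 were lower and 0 were higher, beside 4.43% of all tested genes lower (5.52% of the more abundant genes) and 5.69% higher. With the fold taken from mean FPKM instead, 8 of the 13 stayed called (HNRNPU, SRSF2, SRSF7, HNRNPH1, HNRNPA2B1, HNRNPH3, SRSF1 and HNRNPDL), beside 3.16% of all tested genes lower, and SNRPN was called higher, beside 8.09%. Both gemcitabine libraries lay below both vehicle libraries for 40 of the 52 and above them for 4, against 34.7% and 35.0% of all tested genes. In whole-culture RNA, fewer cells that make a transcript and less of it per cell cannot be told apart.

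The median log2 fold change over the 52 genes was -0.34, beside 0.01 over all tested genes and -0.06 over the more abundant ones. These values rest on TMM scaling, which assumes that most genes do not change. Scaled by library totals instead, the median of all genes moved up by 0.11, to 0.12, and that of the 52 moved to -0.23. Under that scaling 29 of the 36 genes kept an adjusted p under 0.05, and 4 of the 52 were higher. Of all 14854 tested genes, 1977 were lower and 4074 higher under it. Of the 13 called genes 5 kept their call, namely HNRNPU, SRSF2, SRSF1, HNRNPR and HNRNPDL, and 1 gene, SNRPN, was called higher. Tested on FPKM, with limma on log2(FPKM + 1), 16 of the 36 kept an adjusted p under 0.05 and 8 of the 13 their call, and without a filter on low genes 0 did, although 25 of the 52 were lower there at an unadjusted p under 0.05. Fragment values were not whole for 11 of the 54 genes, and 9 of the 13 called genes were whole in every library. Among the called genes, SRSF1 and HNRNPUL2 were not whole in 4 libraries, HNRNPH3 in 2 and SRSF2 in 1.

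**Figure D1:**
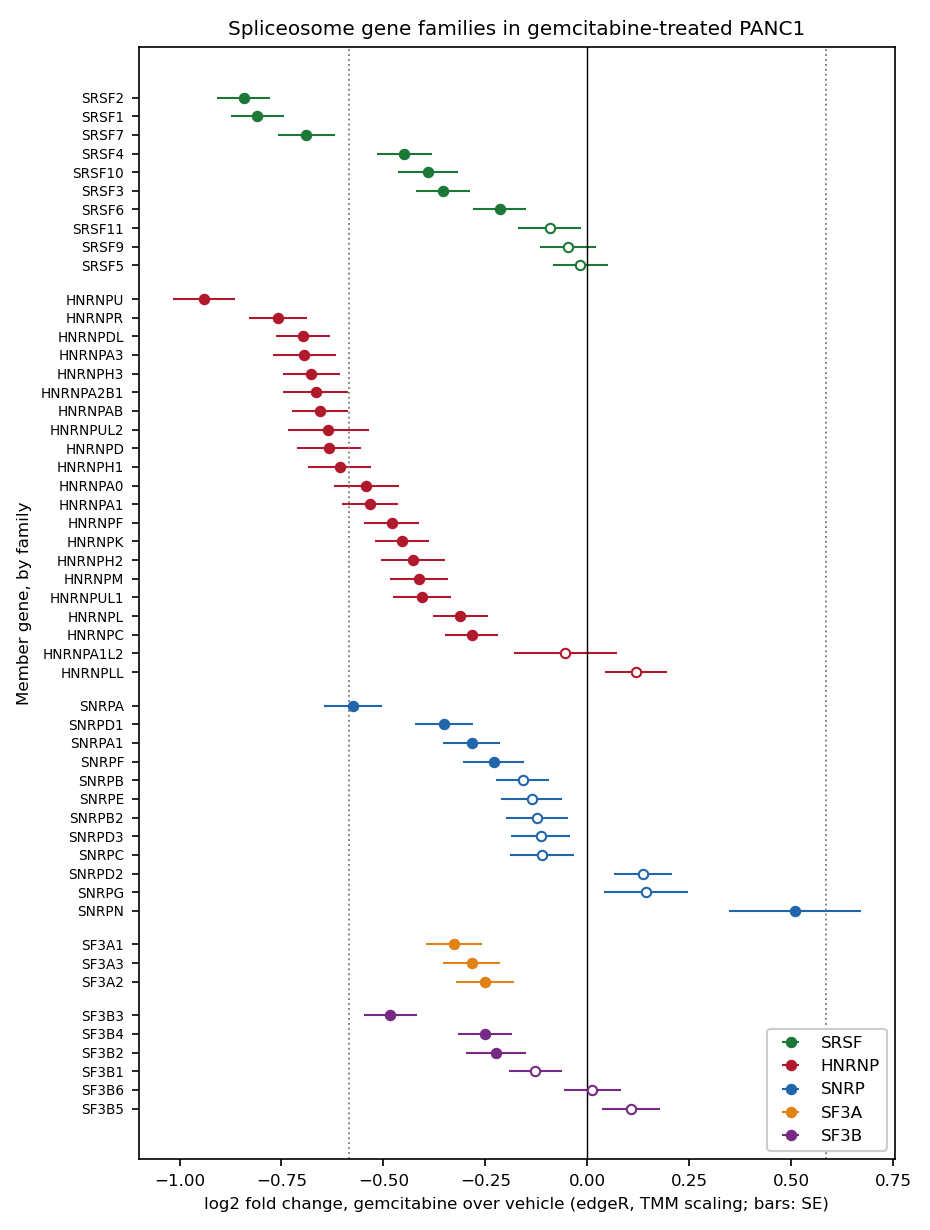
Log2 fold change of fragments, gemcitabine over vehicle (x axis, edgeR with TMM scaling, bars: standard error), of the 52 tested genes (y axis), grouped by family. Filled points have an adjusted p under 0.05, open points do not, and dotted lines mark a fold change of 1.5; 19 of 21 HNRNP genes are filled and left of 0, and SNRPN is the 1 filled point on the right. With library totals all points move right by about 0.11, and SRSF5, SRSF9, SRSF11, SNRPC and HNRNPA1L2, all open, change sign.

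As a share of all gene fragments, the 54 genes took 1.23% and 1.24% of the vehicle libraries and 0.963% and 0.982% of the gemcitabine libraries. The HNRNP genes held 0.748% in both vehicle libraries and 0.521% and 0.558% with gemcitabine, so most of the lost share was theirs. The SRSF genes fell from 0.201% and 0.208% to 0.172% and 0.162%. In contrast, the SNRP genes took 0.107% and 0.105% with vehicle and 0.108% and 0.10% with gemcitabine, and these ranges overlapped. The SF3B genes (0.134% and 0.135% against 0.125% and 0.126%) and the SF3A genes (0.0421% and 0.0400% against 0.0367% and 0.0355%) lay lower with gemcitabine, by less than the hnRNPs. With 2 libraries against 2, an exact permutation test of such a share cannot go below a two-sided p of 0.333, so the shares are given as values.

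**Figure D2:**
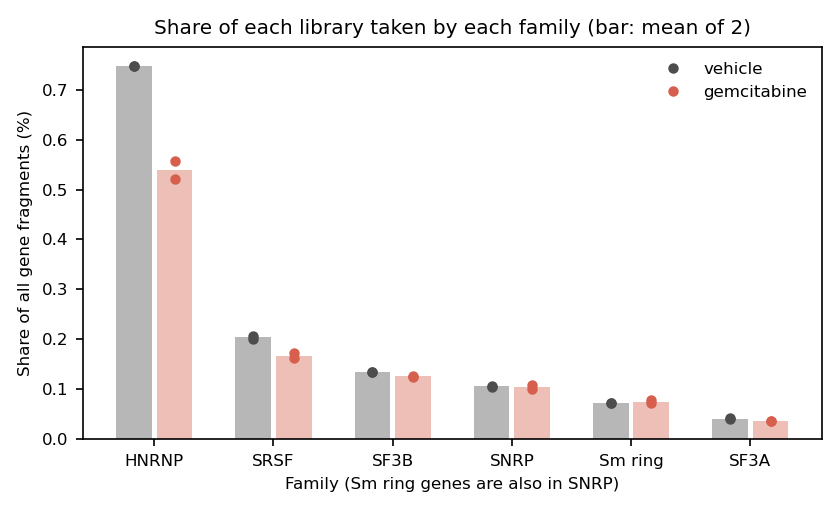
Share of all gene fragments (y axis, %) taken by each family (x axis) in each of the 2 vehicle (grey) and 2 gemcitabine (red) libraries; points are libraries and bars their means. The HNRNP share is 0.748% in both vehicle libraries and 0.521% and 0.558% in the gemcitabine libraries, while the points of the SNRP family and of its Sm ring genes overlap between conditions.

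Upstream DNA of 6 of the genes is shown, to give the letters before the start of the genes that fell most and examples of the motifs counted over the families. The 250 bases before the start of the canonical transcript (GENCODE release 44 lifted to hg19, the build of the DNaseI files) are given 5′ to 3′ on the strand of the gene. Capitals mark, on either strand, the CCAAT box (CCAAT, the letters NF-Y binds), the GC box (GGGCGG, read by SP1-type factors) and the core of ETS-family sites (CCGGAAG). The first 4 genes had the largest falls of all 52, and the last 2, an Sm gene and a branch-point protein gene, were picked because they hold the ETS core and did not pass the test.
HNRNPU, chr1:245027846-245028095, minus strand: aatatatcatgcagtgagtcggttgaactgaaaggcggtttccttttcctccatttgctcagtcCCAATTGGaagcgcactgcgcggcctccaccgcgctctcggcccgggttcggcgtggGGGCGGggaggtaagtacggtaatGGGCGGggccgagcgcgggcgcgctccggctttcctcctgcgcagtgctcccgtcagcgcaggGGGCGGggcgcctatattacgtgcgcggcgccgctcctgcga
SRSF2, chr17:74733414-74733663, minus strand: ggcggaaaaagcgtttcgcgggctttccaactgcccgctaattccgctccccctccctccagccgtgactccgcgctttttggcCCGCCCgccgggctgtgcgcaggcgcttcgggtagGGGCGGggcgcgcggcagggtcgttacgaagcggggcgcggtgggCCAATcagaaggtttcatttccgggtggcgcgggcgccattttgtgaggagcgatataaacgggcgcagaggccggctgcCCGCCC
SRSF1, chr17:56084608-56084857, minus strand: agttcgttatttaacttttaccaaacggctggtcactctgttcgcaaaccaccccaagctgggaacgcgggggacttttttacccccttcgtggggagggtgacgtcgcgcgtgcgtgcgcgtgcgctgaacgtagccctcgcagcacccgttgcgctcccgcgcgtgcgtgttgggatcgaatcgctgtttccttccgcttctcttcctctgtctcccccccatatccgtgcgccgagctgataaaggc
HNRNPR, chr1:23670778-23671027, minus strand: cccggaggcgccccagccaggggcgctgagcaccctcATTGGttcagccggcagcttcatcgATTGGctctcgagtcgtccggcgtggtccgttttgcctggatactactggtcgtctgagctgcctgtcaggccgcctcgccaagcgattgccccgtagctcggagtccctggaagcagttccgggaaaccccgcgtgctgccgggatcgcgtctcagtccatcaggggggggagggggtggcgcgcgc
SNRPB, chr20:2451436-2451685, minus strand: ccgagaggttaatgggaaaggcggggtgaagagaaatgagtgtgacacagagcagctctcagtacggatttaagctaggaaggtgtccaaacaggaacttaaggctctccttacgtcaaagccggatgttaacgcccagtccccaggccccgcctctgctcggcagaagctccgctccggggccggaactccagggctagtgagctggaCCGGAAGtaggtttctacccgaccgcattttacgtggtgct
SF3B6, chr2:24299197-24299446, minus strand: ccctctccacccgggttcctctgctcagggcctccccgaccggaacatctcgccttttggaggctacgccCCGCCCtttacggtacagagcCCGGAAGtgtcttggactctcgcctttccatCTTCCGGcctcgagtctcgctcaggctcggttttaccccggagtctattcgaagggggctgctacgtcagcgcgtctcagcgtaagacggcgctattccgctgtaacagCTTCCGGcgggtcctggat

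The CCAAT box stood in the 250 bases of HNRNPU, where CCAAT and its reverse complement overlap in one run, and of SRSF2 and HNRNPR. The ETS core stood in SNRPB and 3 times in SF3B6, which were picked for holding it. The SRSF1 stretch held none of the 3 motifs. Over the families, CCAAT was found in 15 of 21 HNRNP genes (71.4%), 6 of 12 SNRP genes, 2 of 10 SRSF genes and 2 of 9 SF3A and SF3B genes, beside 34.3% of the 14087 tested genes whose upstream bases were read. The ETS core was found in 2 of 21 HNRNP genes (9.5%), 2 of 10 SRSF genes, 7 of 12 SNRP genes and 6 of 9 SF3A and SF3B genes, beside 14.9% of all. The GC box was found in 16 of 21 HNRNP genes and 30 of the 52 (57.7%), beside 69.7% of all. Of 5 further motifs searched on both strands, the NRF1 core GCATGCGC was found in 5 of the 52, the E2F core TTCCCGC in 9 (17.3%, beside 8.7% of all), the TATA box TATAAA in 8 (15.4%, beside 5.6%), and the CREB motif TGACGTCA and the YY1 motif ATGGCGGC in 0. The motifs were chosen after expression values had been seen, and a match is a description of the letters, not a bound site.

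Among the hnRNPs, 19 of 21 tested genes were down-regulated at an adjusted p under 0.05, 0 were up-regulated, and 10 were called (5 with the fold of FPKM). Their median log2 fold change was -0.54 (-0.43 with library totals). HNRNPU encodes scaffold attachment factor A, an RNA- and DNA-binding protein of the nuclear matrix. HNRNPU (Ensembl ENSG00000153187) had 12854 and 13435 fragments with vehicle and 5922 and 6729 with gemcitabine. The groups were well apart, and the log2 fold change of -0.94 ± 0.076 (SE, 2 libraries per group) amounted to 47.9% less (adjusted p = 5.17e-07). HNRNPR, a relative of the mRNA-stabilising protein SYNCRIP, had 4973 and 5149 fragments with vehicle and 2631 and 2898 with gemcitabine. Its log2 fold change was -0.76 ± 0.071 (adjusted p = 2.06e-06), and the libraries of each group lay close together. HNRNPDL, which encodes a paralogue of the AU-rich element binding protein hnRNP D, had 4929 and 5404 fragments with vehicle against 3008 and 2876 (-0.70 ± 0.066). HNRNPD itself, known for its role in the decay of AU-rich mRNAs, went from 6125 and 6105 to 3397 and 3887 (-0.63 ± 0.077). For both genes the groups were apart. The start of HNRNPDL lies 128 bases from that of ENOPH1, a methionine salvage enzyme gene transcribed the other way, and ENOPH1 was lower as well (-0.86, adjusted p = 3.11e-06).

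The A/B-type hnRNPs are RNA-binding proteins that package nascent transcripts and repress many exons. HNRNPA2B1 stood first of all 54 by length-scaled level, with 1038 and 974 FPKM in vehicle and 599 and 689 FPKM with gemcitabine. Its fragments were 20531 and 21439 against 11225 and 13190, with no overlap and a log2 fold change of -0.67 ± 0.081 (adjusted p = 1.72e-05). HNRNPA1, the best studied of them, had 8749 and 8988 fragments with vehicle and 5450 and 5873 with gemcitabine (773 and 714 against 528 and 571 FPKM). It passed the test (-0.53 ± 0.069, adjusted p = 3.29e-05) but stayed short of a fold change of 1.5. The genome holds 74 annotated pseudogenes named after HNRNPA1, and reads shared with them could not be told apart here, as for the 16 named after HNRNPA3. HNRNPA3 (2823 and 2930 against 1530 and 1755 fragments, -0.69 ± 0.077) and HNRNPAB (2891 and 2927 against 1656 and 1759, -0.65 ± 0.069) fell by similar factors. HNRNPA0 fell as well (-0.54 ± 0.080). HNRNPA1L2, an HNRNPA1-like gene with 167 to 205 fragments per library, did not pass the test (-0.05 ± 0.13, 95% interval -0.30 to 0.19).

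The H/F-type hnRNPs bind runs of G. HNRNPH1 had 5723 and 6069 fragments with vehicle and 3889 and 3266 with gemcitabine, so that the groups were apart but the gemcitabine libraries differed from each other (-0.61 ± 0.077, adjusted p = 2.52e-05). Among all 54 genes HNRNPH1 had the second highest mean FPKM (981 and 816 in vehicle, 595 and 531 with gemcitabine). HNRNPH3 went from 1598 and 1802 to 978 and 985 fragments (-0.68 ± 0.070), with exons that overlap RUFY2 on the other strand. HNRNPF (-0.48 ± 0.068) and HNRNPH2 (-0.43 ± 0.078) passed the test below a fold change of 1.5. HNRNPUL2, an HNRNPU-like gene linked to DNA repair, went from 2079 and 1962 to 1055 and 1350 fragments (-0.63 ± 0.099, adjusted p = 0.000171), the widest spread among the called genes. The smallest falls that passed were those of HNRNPC, a binder of U tracts (-0.28 ± 0.064, adjusted p = 0.00295), and HNRNPL, a binder of CA repeats (-0.31 ± 0.067). HNRNPK, HNRNPM and HNRNPUL1 lay between (-0.45, -0.41 and -0.41). In limma on log2(FPKM + 1) HNRNPA0, HNRNPA3, HNRNPC, HNRNPF, HNRNPH2, HNRNPL, HNRNPUL1 and HNRNPUL2 lost an adjusted p under 0.05. HNRNPLL, the paralogue of HNRNPL known from CD45 splicing in lymphocytes, had 743 and 763 fragments against 787 and 725 and did not pass the test (0.12 ± 0.076, 95% interval -0.03 to 0.27). HNRNPCL1 had 2, 0, 0 and 0 fragments and was not tested.

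**Figure D3:**
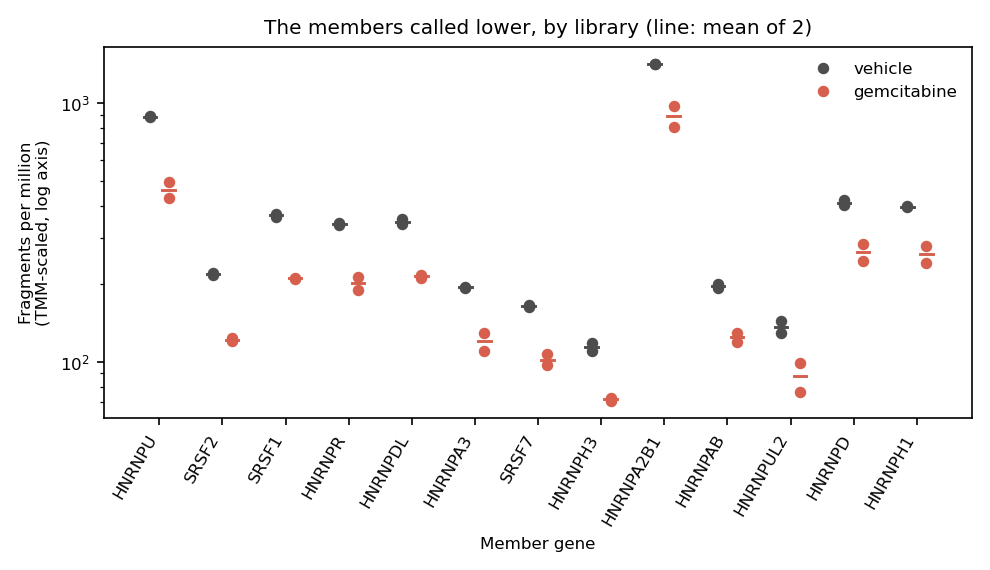
CPM, that is fragments scaled to TMM-adjusted library size (y axis, log scale) in each vehicle (grey) and gemcitabine (red) library for the 13 genes called lower (x axis, ordered by fold change); points are libraries and lines the mean of 2. In every one of the 13 both gemcitabine points lie under both vehicle points, and HNRNPA2B1 is the most abundant. The 13 were chosen for their fall in these same libraries, so this separation is no separate support. Of all tested genes 34.7% lie this way.

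Leaving out 1 library at a time showed which of these calls changed with the library left out. HNRNPU, HNRNPR, HNRNPDL, HNRNPAB, HNRNPH3 and the 3 called SR genes stayed called in all 4 fits. Without gemcitabine replicate 1, HNRNPA2B1 (-0.54), HNRNPA3 (-0.58), HNRNPD (-0.53) and HNRNPUL2 (-0.45) fell short of a fold change of 1.5. HNRNPH1 did so without gemcitabine replicate 2 (-0.50), and HNRNPUL2 also without vehicle replicate 1 (-0.55). For each of the 13 genes the adjusted p stayed under 0.05 in all 4 of these fits.

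Of the SR genes, 7 of 10 tested were down-regulated, 0 were up-regulated, and 3 were called. The family median was -0.37 (-0.26 with library totals). SRSF2 encodes SC35, an activator of exon inclusion that also acts in transcription elongation. SRSF2 (Ensembl ENSG00000161547) had 3138 and 3348 fragments with vehicle and 1705 and 1636 with gemcitabine, 44.2% less (log2 fold change -0.84 ± 0.065, adjusted p = 3.57e-07). The spread within each group was small against the gap between them. SRSF1, the prototype SR protein ASF/SF2 and a known oncoprotein, had 5240 and 5683 against 2920 and 2837 fragments, 42.9% less (-0.81 ± 0.065, adjusted p = 5.15e-07). SRSF7, an adaptor in mRNA export also called 9G8, had 2370 and 2516 against 1482 and 1318 (-0.69 ± 0.070, adjusted p = 3.83e-06). The exons of SRSF2 overlap those of MFSD11 on the other strand, and reads of the 2 genes cannot be told apart where the counting is not stated to use strand. MFSD11 itself was lower by less (-0.24, adjusted p = 0.0153).

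The other SR genes formed a graded series. SRSF4 (-0.45), SRSF10 (-0.39), SRSF3 (-0.35) and SRSF6 (-0.22) passed the test below a fold change of 1.5. None of these passed in limma on log2(FPKM + 1), and SRSF6 did not pass with library totals (-0.11, adjusted p = 0.186). SRSF5 had 2174 and 2148 fragments with vehicle and 2038 and 1911 with gemcitabine, and, with the library depths, a log2 fold change of -0.02 ± 0.067 (95% interval -0.15 to 0.11). SRSF9 had 2560 and 2555 against 2229 and 2346 (-0.05 ± 0.068). These 2 genes were among the 3 SR genes of highest FPKM, SRSF9 at 225 to 241 and SRSF5 at 216 to 254 over the 4 libraries, beside SRSF1 at 239 and 242 in vehicle and 157 and 154 with gemcitabine. Thus SRSF1, SRSF5 and SRSF9 stood at like levels in vehicle, and SRSF1 stood below the other 2 with gemcitabine. SRSF11 did not pass the test (-0.09 ± 0.077), and SRSF12 (1 to 3 fragments per library) was not tested. With library totals SRSF5, SRSF9 and SRSF11 changed sign (0.09, 0.06 and 0.02).

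Of the 12 SNRP genes, 4 were down-regulated, 1 was up-regulated and 7 did not pass the test, with a median of -0.13. These shares, 33.3% and 8.3%, stand beside 31.4% lower and 17.1% higher among all genes with a mean of at least 500 fragments. With library totals 2 SNRP genes were lower and 2 higher, beside 1321 and 1952 of those 6518 genes, and the median came to -0.02. None of the 12 was called with the fold of fragments, and SNRPN was called higher with that of mean FPKM or with library totals. The largest fall was that of SNRPA, the U1-A protein that binds a stem-loop of U1 snRNA. SNRPA had 1871 and 1809 fragments with vehicle and 1197 and 1088 with gemcitabine, and its log2 fold change of -0.57 ± 0.072 lay just short of a fold change of 1.5 (adjusted p = 2.38e-05). SNRPC, the U1-C protein that helps U1 hold the 5′ splice site, did not pass the test (-0.11 ± 0.078, 95% interval -0.26 to 0.04), and 18 annotated pseudogenes bear its name. Of the pair of U2 proteins, SNRPA1 (U2-A′) had 1161 and 1183 against 878 and 901 fragments (-0.28 ± 0.070, adjusted p = 0.00531), and SNRPB2 (U2-B″) did not pass (-0.12 ± 0.076). SNRPA1 did not pass with library totals (-0.17, adjusted p = 0.055) or in limma on log2(FPKM + 1) (-0.15).

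Of the 8 Sm ring genes of this family, whose products are assembled around snRNAs in the cytoplasm, 2 were lower, 1 was higher and 5 did not pass the test. SNRPD1 fell from 1026 and 1065 to 760 and 755 fragments (-0.35 ± 0.071, adjusted p = 0.00134), and SNRPF passed with a smaller difference (-0.23 ± 0.075, adjusted p = 0.0254). In limma on log2(FPKM + 1) SNRPD1 did not pass (-0.14). SNRPF lost an adjusted p under 0.05 with DESeq2, with library totals (-0.12, adjusted p = 0.202), without a filter, in limma and in 3 of the 4 fits that left out a library. SNRPD2 was the most abundant of the family, with 675 and 626 FPKM in vehicle and 815 and 748 FPKM with gemcitabine. Its fragments were 2368 and 2393 against 2572 and 2268 (0.14 ± 0.071, adjusted p = 0.144). It passed as higher with library totals (0.25, adjusted p = 0.0141), and ranged from 0.059 to 0.21 when 1 library was left out. With library totals 1 Sm gene was lower and 2 were higher, beside 1977 and 4074 of all 14854 tested genes. SNRPD3 had 2663 and 2563 against 2352 and 2115 (-0.11 ± 0.072), and SNRPB, SNRPE and SNRPG did not pass either (-0.16, -0.14 and 0.14). The annotation holds 20 pseudogenes named after SNRPG and 10 named after SNRPE, so that their counts are less certain. Direct comparison of SNRPD1 and SNRPD2, which form a dimer before joining the ring, shows intervals that do not overlap (-0.49 to -0.21 and -0.0024 to 0.28), although the difference itself was not tested.

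SNRPN, the Sm protein made from an imprinted locus and typical of neurons, was the 1 gene of the 52 that was higher. It had 168 and 203 fragments with vehicle and 200 and 287 with gemcitabine, so that the lower gemcitabine library lay under the higher vehicle library before scaling for depth. The log2 fold change was 0.51 ± 0.16 (adjusted p = 0.0215). It came to 0.21 without gemcitabine replicate 2 and 0.76 without gemcitabine replicate 1, and the adjusted p stayed under 0.05 in 1 of the 4 fits that left out a library. The DESeq2 test did not call it. SNRPN shares exons with SNURF on the same strand, and its fragment values were not whole in any library.

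All 3 SF3A genes passed the test as lower, each by less than a fold change of 1.5. SF3A1 had 2864 and 2831 fragments with vehicle and 2046 and 2148 with gemcitabine (-0.33 ± 0.069, adjusted p = 0.00166). SF3A3 had 1823 and 1851 against 1475 and 1315 (-0.28 ± 0.070), and SF3A2 had 1692 and 1618 against 1327 and 1246 (-0.25 ± 0.071). The groups did not overlap for any of them, as for 34.7% of all tested genes in this direction. When 1 library was left out, SF3A1 ranged from -0.37 to -0.28, SF3A2 from -0.31 to -0.18 and SF3A3 from -0.35 to -0.21. With library totals SF3A1 kept an adjusted p under 0.05, and SF3A2 and SF3A3 did not. In limma on log2(FPKM + 1) SF3A1 (-0.11), SF3A2 (-0.065) and SF3A3 (-0.13) all failed to pass.

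The SF3B genes split evenly, with 3 of 6 lower and 3 not past the test. SF3B3, a scaffold protein of the complex, had 4381 and 4723 fragments with vehicle and 2990 and 3027 with gemcitabine, the largest fall among them (-0.48 ± 0.065, adjusted p = 4.61e-05). SF3B4 had 1697 and 1703 against 1314 and 1328 (-0.25 ± 0.067), and SF3B2 had 5460 and 5449 against 4086 and 4543 (-0.22 ± 0.073). SF3B1, which clamps the branch point and is often mutated in blood cancers, had 6705 and 7375 against 6047 and 5859 and did not pass the test (-0.13 ± 0.065, adjusted p = 0.14). SF3B6, which touches the branch-point adenosine, and SF3B5 did not pass (0.01 and 0.11). With library totals SF3B2 and SF3B4 did not pass (adjusted p = 0.182 and 0.0908) and SF3B5 passed as higher (0.22, adjusted p = 0.0246). This left 1 lower and 1 higher, beside 1977 and 4074 of all 14854 tested genes. SF3B2 and SF3B4 each passed in 2 of the 4 fits that left out a library, and neither passed in limma. With TMM scaling, subunits of the 1 complex ranged from -0.48 to 0.11.

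**Figure D4:**
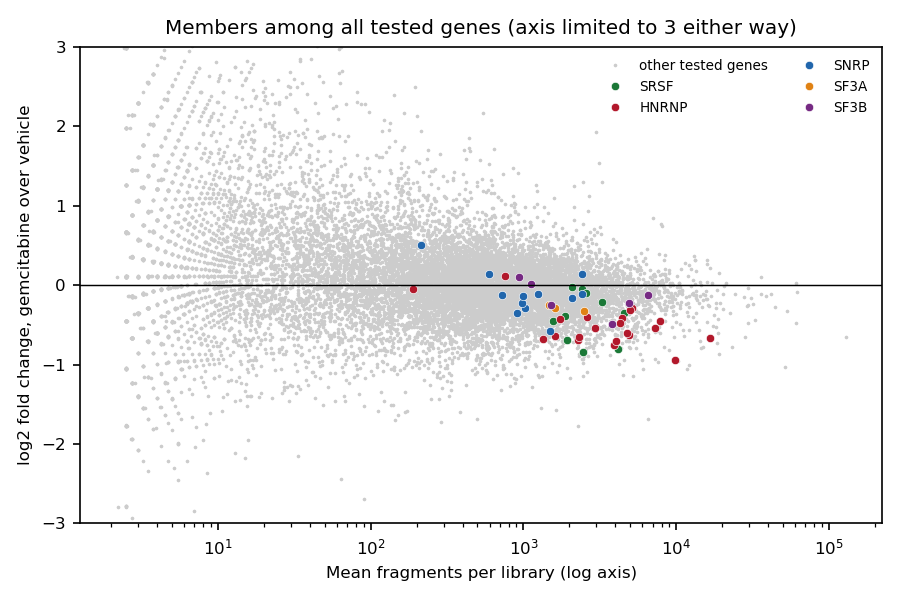
Log2 fold change, gemcitabine over vehicle (y axis, limited to 3 either way, which leaves out 76 genes), against mean fragments per library (x axis, log scale) for all 14854 tested genes (grey) and the 52 family genes (coloured by family). Of the 52, 50 lie at 500 fragments or more and 46 lie below 0 (TMM scaling), among them nearly all HNRNP genes.

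Other genes of splicing, in 7 lists that hold none of the 54, gave a frame for these values. Of 139 tested genes in the lists, 58 were lower and 4 higher at an adjusted p under 0.05, with a median log2 fold change of -0.19 (-0.08 with library totals). The counts depended on which library was left out. Fewer were lower without either vehicle replicate, and more were lower without either gemcitabine replicate. The cause of this was not tested. The share lower, 41.7%, stands beside 20.0% of all tested genes and 31.4% of those with a mean of at least 500 fragments. By the rule for calls 10 were lower and 0 higher, beside 4.43% of all tested genes lower (5.52% of the more abundant genes) and 5.69% higher. At an unadjusted p under 0.05 there were 67 lower and 7 higher, beside 3586 and 3428 of all 14854 tested genes. DESeq2 found 0 of the listed genes higher. Factors that assemble the Sm ring had 8 of 16 lower and 0 higher (0 also at an unadjusted p), with SMN1 and SMN2, near-identical copies that cannot be told apart, not past the test. GEMIN5, the subunit of the SMN complex that recognises snRNAs, had 1276 and 1460 fragments with vehicle and 559 and 584 with gemcitabine, the largest fall in the lists (-1.14 ± 0.078, adjusted p = 1.42e-07). GEMIN8 of the same complex went from 330 and 326 to 157 and 150 (-0.98 ± 0.11). The lowest log2 fold change of an Sm gene was -0.35 (SNRPD1), and the difference between Sm genes and their assembly factors was not tested.

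Among SR protein kinases, import factors and SR-related proteins, 8 of 16 were lower and 1 was higher. PNN, a speckle protein, fell most (-0.65 ± 0.080), followed by TRA2B, an SR-like activator of exons (-0.57 ± 0.065). CLK1, a kinase of SR proteins, was the 1 that was higher, with 456 and 505 against 609 and 472 fragments, so that the groups overlapped before scaling (0.28 ± 0.11, adjusted p = 0.0472). Of the other splicing regulators, 15 of 32 were lower and 2 higher. SYNCRIP, the relative of HNRNPR, had 4679 and 5177 against 2274 and 2670 fragments (-0.88 ± 0.082). ESRP2, a regulator of epithelial exons, had 788 and 788 against 406 and 390 (-0.87 ± 0.082), and QKI (-0.73) and the poly(C)-binding protein gene PCBP1 (-0.58) were called lower too. The genes that were higher were PCBP4 (0.36 ± 0.093, adjusted p = 0.0073) and RBM5 (0.29 ± 0.094, adjusted p = 0.0223).

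The lists of the core machinery had median log2 fold changes of -0.23 to -0.13 (TMM scaling), or -0.12 to -0.02 with library totals. Of the U1, U2 and recognition factors 8 of 19 were lower and 0 higher, with SF1, the first reader of the branch point, called (6027 and 6248 against 3436 and 3529 fragments, -0.70 ± 0.066) and PUF60 next (-0.42). The U4/U6 and U5 proteins had 9 of 24 lower, led by SART1 (-0.51) and PRPF8, the core of the spliceosome (-0.38), and 0 called. The factors of the catalytic steps and of the PRP19 complex had 8 of 24 lower and 1 higher (BCAS2, 0.21 ± 0.079), with the helicase DHX15 (-0.69 ± 0.068) and the kinase PRPF4B (-0.60 ± 0.089) called. Their 33.3% lower, like the 37.5% of the U4/U6 and U5 proteins, lay near the 31.4% of all genes with a mean of at least 500 fragments. Of the U11/U12 proteins, which serve the minor spliceosome, 2 of 8 were lower, SNRNP48 (-0.34) and ZCRB1 (-0.23).

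**Figure D5:**
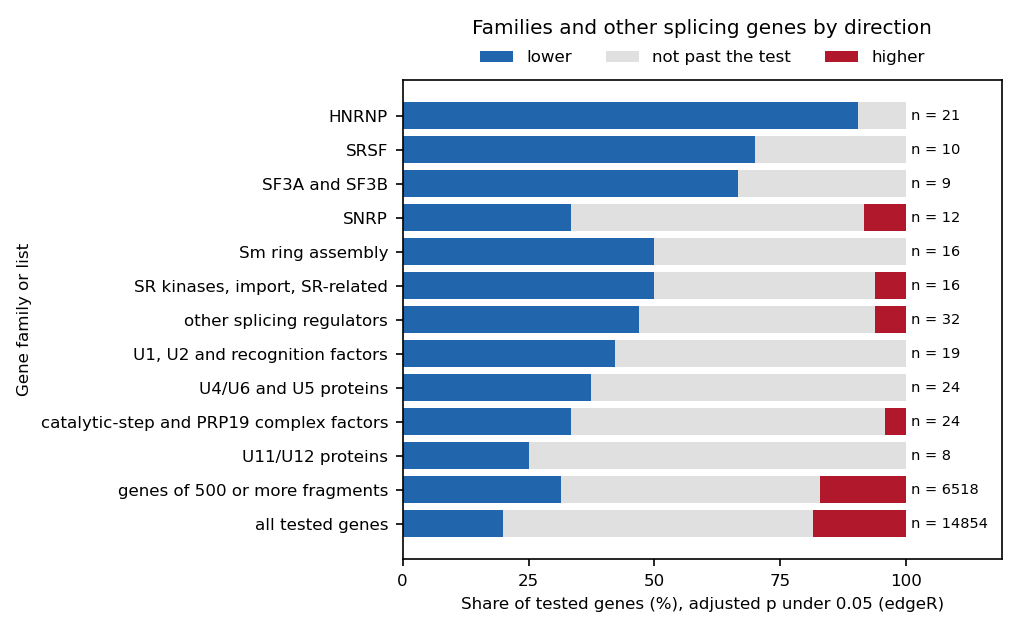
Share of tested genes (x axis, %) that were lower (blue) or higher (red) with gemcitabine at an adjusted p under 0.05 (edgeR, TMM scaling) or did not pass the test (grey), for the families, the lists of other splicing genes and all genes (y axis, n: genes tested). The HNRNP bar holds 19 of 21 genes lower, the SNRP bar 4 of 12, and all tested genes 20.0%. With library totals 29 rather than 36 of the 52 stay lower, beside 1977 of all 14854 tested genes.

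Because FPKM depends on which isoforms the reads were assigned to, while fragments do not, the ratio of FPKM to fragments was compared between conditions as a sign of a shift in transcript length. Over the 52 genes the difference in log2 ratio ranged from -0.19 to 0.12. No gene passed an adjusted p of 0.05 in limma, neither among the 52 nor among the 10599 genes tested (0.0%), and the smallest adjusted p among the 52 was 0.592. With 2 libraries per group, adjustment over 10599 genes leaves this test weak, so absence of a shift was not shown. At an unadjusted p under 0.05 there were 2 of the 52, SRSF7 (-0.13 ± 0.040) and SNRPG (-0.14 ± 0.040), beside 7.96% of all. The table gives values per gene, so that the poison exons by which SR and hnRNP genes are known to limit their own expression were not analysed here.

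Accessible chromatin at the starts of these genes was read from the DNaseI peaks of the 2 libraries, 9606 with vehicle and 10695 with gemcitabine. A peak lay within 500 bases of an annotated start for 35 of the 52 genes with vehicle (67.3%) and 33 with gemcitabine (63.5%), beside 27.0% and 31.3% of the 14153 tested genes with an annotated start. Of the 52, 50 had a mean of at least 500 fragments. The share among other genes of that level was not taken, so these shares do not set the 52 apart from other abundant genes. The same gene had a peak in both conditions in 26 cases, with vehicle alone in 9, with gemcitabine alone in 7 and in neither in 10. Of the HNRNP genes, 15 of 21 had a peak with vehicle and 11 with gemcitabine, and of the SRSF genes 6 and 7 of 10. For the 26 genes with both, the peak score (minus 10 times the log10 of the p-value of MACS) was higher with vehicle in 15 and with gemcitabine in 11. HNRNPU and HNRNPDL were among the 10 with no peak in either condition. SRSF1 had scores of 162 with vehicle and 96.0 with gemcitabine, SRSF2 91.7 and 107, and HNRNPR 170 and 154. With 1 library per condition these differences have no replicate check, and the depth of these libraries is not given in the peak lists.

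Other features of position that played no part in choosing the genes were read from the annotation. The median span of the 52 genes was 15403 bases, beside 35630 for all tested genes, and 12 of the 52 (23.1%) had the start of another protein-coding gene on the other strand within 1000 bases upstream, beside 12% of all. Over the 52 genes, Spearman's rho between log2 fold change and span was 0.14 and that with mean FPKM was -0.21, values across genes that share the same 4 libraries. The neighbour of HNRNPA2B1, the heterochromatin protein gene CBX3, was lower (-0.54, adjusted p = 2.25e-05). PLEKHJ1 beside SF3A2 was lower too (-0.45, adjusted p = 0.000447), as were ENOPH1 and MFSD11. In contrast, COG4 beside SF3B3 (0.22, adjusted p = 0.0351) and GUCD1 beside SNRPD3 (0.31, adjusted p = 0.00188) were higher. The other neighbours did not pass the test, among them that of HNRNPA1, CBX5 (0.15, adjusted p = 0.119). The exons of HNRNPA2B1 and CBX3 overlap on opposite strands, which also leaves reads there unassignable without strand.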

How the data were processed

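RNA libraries of PANC1 (2 vehicle, 2 gemcitabine) and DNaseI libraries (1 each) were analysed. Per the labels and methods, the authors aligned reads to hg19 with TopHat2 2.0.8 and ran Cuffdiff 2.0.2 on the protein-coding genes of GENCODE 15, with at least 10 reads. The deposited table gives estimated counts (fragments, 86.8% of values whole) and FPKM per gene and library; 2 columns of scaled fragments were not used. The deposited DNaseI peaks carry the MACS score (-10 log10 of p, threshold 1e-05); all peaks scored at least 50. Cuffdiff marked 275 genes as failed in a library, none of them among the 54.

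Fragments were rounded and fitted over the whole table with the edgeR quasi-likelihood test (edgeR 4.0.16, R 4.3.3, TMM scaling, at least 10 fragments over 4 libraries, 2-sided), with Benjamini-Hochberg adjustment over all tested genes. limma 3.58.1 tested log2 of FPKM over CPM (mean of at least 100 fragments). DESeq2 1.42.0, other scalings and filters, limma on log2(FPKM + 1) and log2(FPKM + 0.1), and leaving out each library were alternatives. Errors are SE. In edgeR the SE is the size of the log2 fold change over the square root of the F statistic, with a variance moderated over all tested genes. Intervals are 1.96 SE either side, a normal approximation that is narrower than the F test implies. The edgeR fit was tested on simulated counts with few changed genes, in both directions, and a fixed spread. That setting cannot decide between TMM scaling and library totals. Depth was 13194533 to 15766237 fragments per library, and intervals rest on only 2 libraries per group.

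The members, lists and motifs were chosen with earlier results of these data known, so counts over them are descriptions. Named were the called genes, the 3 largest rises and falls past the test and the 3 highest mean FPKM in each family, and called or leading genes of each list; other members are given by value or range. The former symbol NAA38 was dropped from a list because another gene now holds it. The library index in the table does not say which labelled replicate it is, so replicate numbers here are names only. Strand use in counting is not given in the sources used here.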

Additional observations from a re-analysis of the deposited data

How the results depend on the processing

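For the 29 named genes, 264 of 348 values under 12 alternatives kept their direction and their side of an adjusted p of 0.05, 66 lost it, 4 gained it and 14 reversed, all of the latter near 0. SRSF5 reversed to 0.094 with library totals and to 0.13 in the 3 limma fits, and ranged from -0.051 to 0.033 when 1 library was left out. SRSF9 reversed to 0.063 with library totals and to 0.015 in the 3 limma fits, and ranged from -0.096 to 0.0043 without 1 library. SNRPD3 reversed to 0.098 in the 3 limma fits.

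The count of 13 members called lower became 5 with library totals, 8 with limma on log2(FPKM + 1) or log2(FPKM + 0.1), 0 with limma without a filter, 8 with the fold taken from mean FPKM (an alternative chosen after seeing the data), and 10 to 14 when 1 library was left out. The 0 called higher became 1 (SNRPN) with library totals, 1 (SNRPN) with the fold from mean FPKM and 0 to 1 without 1 library. The 36 lower by adjusted p alone became 16 in both filtered limma fits, 0 in the unfiltered one (25 at an unadjusted p), and 25 to 40 without 1 library. The 1 higher became 4 with library totals, 0 with DESeq2, without a filter in edgeR, in the 3 limma fits and among members with whole fragment values (an alternative chosen after seeing the data), and 0 to 2 without 1 library.

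The 58 listed splicing genes that were lower became 34 with library totals, 13 in both filtered limma fits, 0 in the unfiltered one and 29 to 69 without 1 library. The 4 that were higher became 13 with library totals, 0 with DESeq2, 1 without a filter in edgeR, 0 with limma without a filter and 0 to 13 without 1 library. Members with a promoter peak fell from 35 to 16 with vehicle and from 33 to 17 with gemcitabine at a score of at least 100. The causes of these moves were not tested. With library totals 1977 of all 14854 tested genes were lower and 4074 higher at an adjusted p under 0.05. No paired analysis was possible because the index of each library in the table could not be tied to a labelled replicate number. With 2 libraries per group, a fit that leaves 1 out assumes that the lone library varies like the other group.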
